A study of Rattus norvegicus with 8 samples.

Results

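The genes described here encode receptors and bridging molecules with which macrophages take up dead cells, and chains of complement C1q, measured in rat thymocyte cultures with and without a glucocorticoid. They were chosen by name, as the probes that the array assigns to Mertk, Axl, Tyro3, Gas6, Cd163, Cd36, Msr1, Mrc1, C1qa or C1qb, with the suffix that marks a predicted gene removed. Of these 10 names 9 were on the array, with 15 of its 41012 non-control probes, and Msr1 was not found under its own name. Primary thymocytes, the immature T cells of the thymus, came from adrenalectomized male Sprague-Dawley rats, and for each preparation the thymi of 3 animals were pooled, sheared and filtered. The cells spent 6 hours in culture either with no added hormone (4 Control arrays) or in 100 nM dexamethasone, a synthetic glucocorticoid (4 Dex arrays). Both groups therefore lack the adrenal source of endogenous glucocorticoid, and neither was sorted for a cell type. The arrays were made to follow gene expression while thymocytes die under glucocorticoid, in a study whose main subject is miRNAs and their predicted targets. The paper describes 3 biological replicates per group and all 8 deposited arrays were used here.

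Thymocytes that die are removed by phagocytes that reside in the thymus. Tyro3, Axl and Mertk form a family of receptor tyrosine kinases that bind phosphatidylserine, a lipid displayed by dying cells, through the bridging ligand Gas6. Cd36, Msr1, Mrc1 and Cd163 are scavenger or lectin receptors of macrophages. C1q, built of A, B and C chains that are encoded by neighboring genes, starts the classical complement pathway and also binds dying cells, and macrophages are its main source. Axl, Cd36 and Gas6 are expressed by other cell types too.

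The 60-base probes below are those of Axl, the gene that passed, the 2 probes of C1qa, and the dimmer of the 2 Mrc1 probes, shown for the intron it spans. They are shown 5′ to 3′ with no base set apart, with positions in rat genome build rn3 from the scanner output and the strand taken from the order of each position's ends. The Axl probes lie at chr1:81043206-81044923 (A_44_P353729) and chr1:81045680-81047405 (A_43_P16070) on the minus strand. Each spans far more genome than its own length, which means that it crosses at least 1 intron and matches spliced RNA. The same holds for the dimmer Mrc1 probe at chr17:88499989-88502596 on the plus strand (A_43_P18738). Both C1qa probes match an unbroken stretch of the minus strand, at chr5:155672617-155672676 (A_44_P487761) and chr5:155672806-155672865 (A_44_P487764).
Axl A_44_P353729: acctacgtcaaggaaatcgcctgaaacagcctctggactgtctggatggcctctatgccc
Axl A_43_P16070: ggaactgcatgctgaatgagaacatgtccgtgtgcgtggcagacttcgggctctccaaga
Mrc1 A_43_P18738: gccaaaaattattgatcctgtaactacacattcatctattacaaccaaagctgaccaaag
C1qa A_44_P487761: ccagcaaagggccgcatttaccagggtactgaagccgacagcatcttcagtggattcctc
C1qa A_44_P487764: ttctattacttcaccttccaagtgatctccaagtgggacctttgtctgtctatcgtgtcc

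All levels below are log2 values of the background-subtracted signal, quantile normalized between arrays, and are listed in the order of replicates 1 to 4. A difference is Dex minus Control on that log2 scale. A replicate pair is a Control and a Dex array of the same replicate number, and the labels do not say that these share a preparation. A probe counts as well above background by the flag that the scanner software sets, and a gene with several probes is represented by its brightest one. Between 24908 and 34472 probes per array carried that flag, fewest on Dex 1 and Dex 2 with 26471 and 24908 and on Control 1 with 28665. Dex 1 and Dex 2 stood apart from Dex 3 and Dex 4 across the array, and values without either pair of arrays are given where they bear on a result. The arrays lie on 3 slides, of which 1 holds Control 1 and Dex 3, another the other Control arrays and the last the other Dex arrays. As a check of the treatment, Tsc22d3, a classical glucocorticoid-induced gene, was 12.1-fold higher in Dex (adjusted p = 0.000153) and Fkbp5, a chaperone that binds the receptor complex, was 3.32-fold higher (adjusted p = 0.00133, limma with Benjamini-Hochberg adjustment).

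Of the 9 genes 1, Axl, was higher in Dex at an adjusted p below 0.05, and none was lower. Both Axl probes passed, against 0.778% of all 41012 probes that passed in either direction of which 0.563% of all probes were higher and 0.215% lower in Dex. In the fit that blocks by replicate number, 1 of the 2 Axl probes passed, against 0.198% of all probes. Mrc1, the mannose receptor gene, had the largest difference of the 9 genes in the fit with no block, but its spread was too wide for the test. Axl had the larger difference of the 2 without Dex 1 and Dex 2, at 2.11 against 1.65, and on the shared slide, at 2.13 against 2.05. In 2 genes, Axl and Mrc1, all Dex arrays lay above all Control arrays, as did 4.6% of all probes, and no gene lay wholly below, as did 4.51%. Without the adjustment 3 genes had a p under 0.05, Axl, Mrc1 and C1qb, against 10.6% of all probes. The median difference was 0.23 over the 9 genes and 0.0003 over all probes. No list was tested as a whole. In RNA of mixed cells, fewer cells of a type and less RNA per cell cannot be told apart.

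**Figure D1:**
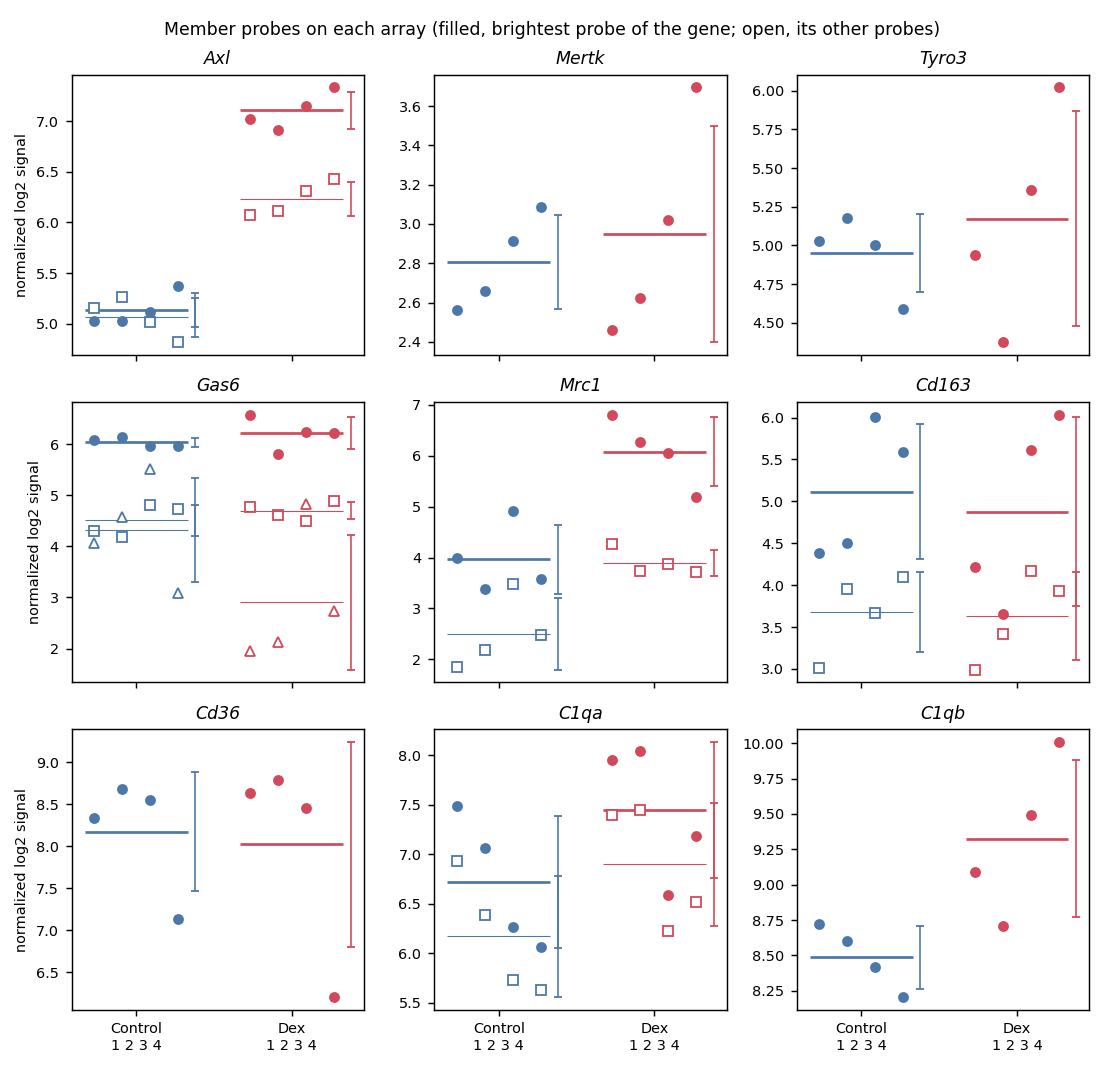
Normalized log2 signal (y axis, a scale of its own for each gene) of the 15 probes on each Control and Dex array, with replicates 1 to 4 from left to right, horizontal lines at the group means and bars for ± 1 SD (n = 4). The Axl values of the 2 groups are apart for both probes, whereas for C1qb the lowest Dex array, at 8.71, lies just under the highest Control array, at 8.72.

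The receptor Axl read 5.02, 5.02, 5.12 and 5.38 in Control and 7.02, 6.92, 7.16 and 7.34 in Dex with its brighter probe. The values within a group differed by less than 0.5 and the groups were far apart. The difference was 1.97 ± 0.16 (SE), a 3.93-fold higher signal in Dex, with a 95% interval of 1.60 to 2.35 and an adjusted p of 0.00203 (limma). Its size was alike in the 4 replicate pairs, at 2.00, 1.90, 2.04 and 1.96. Blocking by replicate number, the adjusted p was 0.0341. On the slide that holds both groups, Dex 3 exceeded Control 1 by 2.13.

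With the dimmer Axl probe Control read 5.15, 5.26, 5.02 and 4.82 and Dex 6.07, 6.11, 6.32 and 6.43. The groups were again apart and every pair was higher in Dex. The difference of 1.17 ± 0.17 (SE), 2.25-fold, was smaller than with the first probe, with an adjusted p of 0.0236 (limma), which became 0.158 with the replicate block. Both probes were well above background on all 8 arrays. In the brighter probe the call was kept without any 1 array, with adjusted p-values of 0.00635 to 0.0174 (limma). Without Dex 1 and Dex 2 the difference was 2.11 and without Dex 3 and Dex 4 it was 1.84, and both passed, in fits in which 17.4% and 18% of all probes passed. Slide as a fixed block, which leaves the comparison to 1 array per group, gave 2.13 with an adjusted p of 0.366 (limma). Under normexp background correction the difference was 0.96 and passed (adjusted p = 0.000864, limma). Over all the alternatives the adjusted p ran from 0.000213 to 0.366 (limma), and that with slide as a fixed block was the only one above the threshold.

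The other receptors of the Axl family did not pass. Mertk, the receptor best known for apoptotic cell uptake by macrophages, read 2.56, 2.66, 2.91 and 3.08 in Control and 2.46, 2.62, 3.02 and 3.70 in Dex. Its probe exceeded background clearly on 4 of the 8 arrays, 2 in each group, so its level is near the limit of the assay. The difference was 0.14 with a 95% interval of -0.52 to 0.80 (adjusted p = 0.902, limma), and its sign turned to -0.12 with scaling to the 75th percentile of each array. It was also below 0 without Dex 4, at -0.11, and without Dex 3 and Dex 4, at -0.26, and it was 0.55 without Dex 1 and Dex 2.

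Tyro3, the third receptor of the family, read 5.03, 5.17, 5.00 and 4.59 in Control and 4.94, 4.37, 5.36 and 6.02 in Dex. The Dex arrays spread to both sides of the Control arrays, and 3 of the 4 were well above background. The interval of the difference, -0.56 to 1.01, holds changes of either sign (difference 0.23, adjusted p = 0.87, limma). Without Dex 3 and Dex 4 it was -0.29 and without Dex 1 and Dex 2 it was 0.74, and leaving out 1 array gave 0.49 without Dex 2 and -0.06 without Dex 4.

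Gas6, the ligand shared by the 3 receptors, was measured by 3 probes on chromosome 16. The brightest read 6.07, 6.15, 5.97 and 5.95 in Control and 6.57, 5.81, 6.24 and 6.21 in Dex. These values overlap, with a difference of 0.17 and a 95% interval of -0.26 to 0.60 (adjusted p = 0.809, limma). It was 0.05 without Dex 1 and 0.30 without Dex 2, and with the mean over the 3 probes it turned to -0.35. A second probe differed by 0.19. The last Gas6 probe disagreed with them, at 4.06, 4.58, 5.52 and 3.1 in Control and 1.96, 2.13, 4.83 and 2.73 in Dex. It was lower in Dex in every pair, by 1.40 on average, but on the shared slide it was higher in Dex by 0.77. Further, the arrays overlapped, only 2 of the 4 Dex arrays were well above background, and it did not pass (adjusted p = 0.568, limma).

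Among the scavenger and lectin receptors, Mrc1, which binds mannose-bearing glycoproteins, read 4.00, 3.37, 4.91 and 3.59 in Control and 6.81, 6.28, 6.05 and 5.20 in Dex with its brighter probe. The lowest Dex array lay above the highest Control array, and the arrays of a group spread over more than 1 unit. The difference was 2.12 ± 0.43 (SE), 4.33-fold, with a 95% interval of 1.13 to 3.1, and it did not pass (adjusted p = 0.087, limma). On the shared slide it was 2.05.

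The dimmer Mrc1 probe read 1.86, 2.19, 3.48 and 2.48 in Control and 4.27, 3.74, 3.88 and 3.71 in Dex. It pointed the same way, with a difference of 1.40 (adjusted p = 0.156, limma), and was well above background on 1 Control and 3 Dex arrays. The call for the brighter probe depended on the test. It passed by a signal to noise statistic like that of the methods, computed here against the 70 assignments of the arrays, which 6.79% of all probes passed and 3.59% passed as higher in Dex. It also passed with slide as a random block (adjusted p = 0.00957, limma), a fit in which 4.48% of all probes passed. The correlation estimated in that fit was -0.24. Without Dex 3 and Dex 4, where 18% of all probes passed, the brighter probe passed at 2.58 (adjusted p = 0.0213, limma). It did not pass without Dex 1 and Dex 2, at 1.65 (adjusted p = 0.0587, limma). Over all the alternatives its adjusted p ran from 0.00957 to 0.771 (limma). With normexp the difference was 0.68 (adjusted p = 0.0856, limma).

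Cd163, which takes up hemoglobin bound to haptoglobin and marks tissue macrophages, read 4.38, 4.50, 6.00 and 5.59 in Control and 4.21, 3.65, 5.62 and 6.03 in Dex. In both groups replicates 3 and 4 were above replicates 1 and 2, and the groups overlapped. The probe was well above background on all Control arrays and on 2 of the 4 Dex arrays. The difference was -0.24 with a 95% interval of -1.64 to 1.16 (adjusted p = 0.925, limma). It was 1.24 on the shared slide and, in the fits without Dex 1 and Dex 2 and without Dex 3 and Dex 4, 0.71 and -1.19. Its sign also turned without Control 3 alone, at 0.06, and without Dex 2 alone, at 0.17. A second Cd163 probe differed by -0.05.

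Cd36, a receptor for oxidized lipids that is also expressed by platelets and endothelium, was the member with the most spots, printed 10 times on each array. It read 8.33, 8.68, 8.56 and 7.13 in Control and 8.63, 8.79, 8.46 and 6.21 in Dex. Replicate 4 was the lowest of both groups. The spots of 1 array differed little, with SDs of 0.0420 to 0.102, all far below the distance of replicate 4 from the others. The groups overlapped, with a difference of -0.15 and a 95% interval of -1.57 to 1.27 (adjusted p = 0.956, limma). Its sign turned with the arrays used, at -0.84 without Dex 1 and Dex 2, 0.54 without Dex 3 and Dex 4, 0.45 without Dex 4 alone and 0.02 without Control 2 alone.

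No probe carries the name Msr1, the class A scavenger receptor. A probe at chr16:56293661-56293720 has an older name that the reference gene table lists as a synonym of Msr1, and it lies outside the naming rule. It read between 3.37 and 3.90 in Control and between 3.09 and 4.15 in Dex and was well above background on 5 of the arrays, 3 of them Control. The groups overlapped, with a difference of 0.01.

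**Figure D2:**
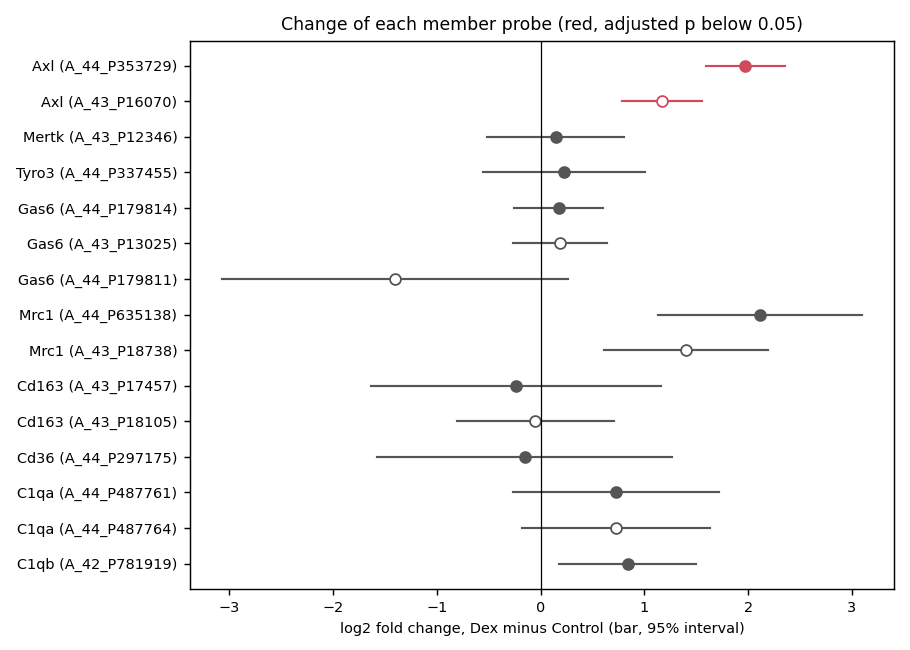
Log2 fold change, Dex minus Control, of each of the 15 probes (x axis) with its 95% interval, filled for the brightest probe of a gene and red where the adjusted p is below 0.05. Only the 2 Axl probes are red. The intervals of both Mrc1 probes and of C1qb also lie above 0 before adjustment, and those of Cd163 and Cd36 are the widest among the brightest probes, from -1.64 to 1.16 and from -1.57 to 1.27.

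C1qa, the A chain of C1q, read 7.49, 7.06, 6.27 and 6.07 in Control and 7.96, 8.05, 6.59 and 7.18 in Dex. Each Dex array was above the Control array of the same number, but the groups overlapped widely, with replicates 1 and 2 the highest in both. The difference was 0.72 ± 0.43 (SE) with a 95% interval of -0.27 to 1.71 (adjusted p = 0.634, limma). It was 0.17 without Dex 1 and Dex 2 and 1.28 without Dex 3 and Dex 4. Its second probe followed the first closely, with a difference of 0.73. On the slide shared by both groups Dex 3 was below Control 1 by 0.90, so that the sign turned with the arrays compared.

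C1qb, the B chain, read 8.72, 8.60, 8.42 and 8.21 in Control and 9.09, 8.71, 9.49 and 10.0 in Dex. All 4 pairs were higher in Dex, as were 4 of the 9 genes (Axl, Mrc1, C1qa and C1qb) and 13.1% of all probes. The difference was 0.84 ± 0.29 (SE), 1.79-fold, with an adjusted p of 0.33 (limma). It passed only without Dex 1 and Dex 2, where 17.4% of all probes passed, at 1.26 (adjusted p = 0.0216, limma). Without Dex 3 and Dex 4 it was 0.41. Over all the alternatives its adjusted p ran from 0.0216 to 0.771 (limma).

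The C chain gene C1qc, which the array names C1qg and the naming rule does not hold, was set beside the other 2 chains. Its brighter probe read 6.37, 6.05, 6.34 and 6.22 in Control and 6.77, 6.50, 7.65 and 7.96 in Dex. All Dex arrays were above all Control arrays and the difference of 0.97 did not pass (adjusted p = 0.327, limma). With scaling to the 75th percentile the groups overlapped, since Dex 2, at 6.01, was below all Control arrays. The C1qc difference passed without Dex 1 and Dex 2, where 17.4% of all probes passed, at 1.56 (adjusted p = 0.0151, limma). Without Dex 3 and Dex 4 it was 0.39. The other C1qc probe read 5.85, 5.92, 5.56 and 5.75 in Control and 6.19, 6.30, 6.09 and 6.29 in Dex. With this probe the Dex arrays were close together, and with scaling to the 75th percentile they were not.

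The chains did not vary alike among the Dex arrays. C1qa was higher on Dex 1 and Dex 2, and C1qb and the brighter C1qc probe on Dex 3 and Dex 4. This order was also seen with scaling to the 75th percentile and with normexp background correction. Dex 1 and Dex 2 are also the Dex arrays with the fewest probes well above background, and the part of this in the result was not tested.

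**Figure D3:**
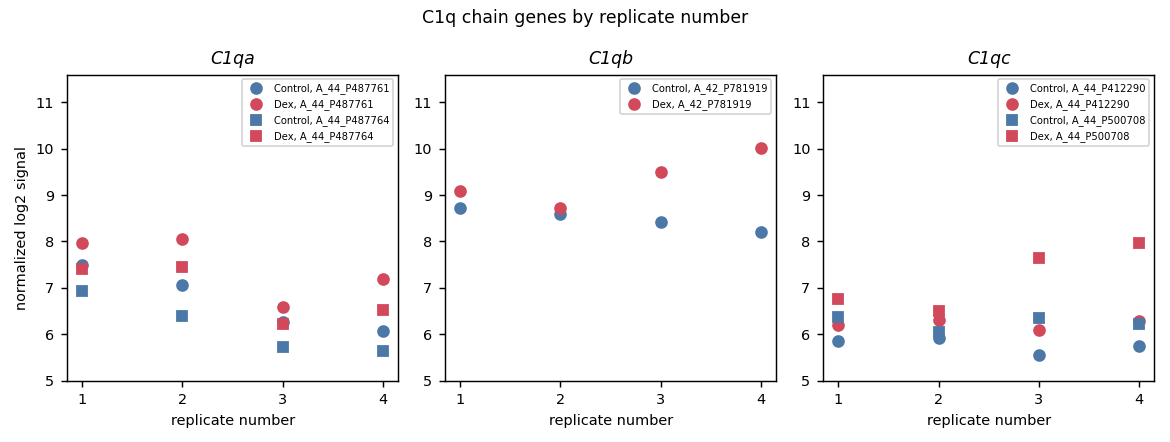
Normalized log2 signal (y axis, the same scale in all panels) of the A, B and C chain genes of C1q against replicate number (x axis), with a symbol for each probe. In Dex the C1qa probes are highest in replicates 1 and 2, at up to 8.05, and C1qb in replicates 3 and 4, at up to 10.0.

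The genes with the pattern most like C1qa were looked for among 8287 candidate genes well above background on all 8 arrays. The measure was the root mean square difference of the log2 values over the 8 arrays, each probe centered on its own mean. The second C1qa probe differed by 0.098. The nearest other genes were Lhx4 at 0.146, Gmpr at 0.21, Cga at 0.219, Ltb4dh at 0.227 and Spap1 at 0.231. C1qb, at 0.761, would stand at rank 5940.

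The cultures were checked for macrophages with 20 marker genes on the array. Of these, 14 were well above background on all 8 arrays, among them the defining markers Csf1r, Adgre1 and Cd68, and Vsig4 was on none. None passed in either direction (limma), and 1 had an unadjusted p under 0.05, against 10.6% of all probes. Of the 20 markers 10 were higher and 10 lower, and the median difference was 0.01. The mean level of the 14 markers ran from 7.19 to 7.48 in Control and from 7.02 to 7.53 in Dex. Csf1r, the receptor for the macrophage growth factor, differed by 0.12, Adgre1, a surface adhesion receptor of macrophages, by -0.15 and Cd68, a lysosomal glycoprotein, by -0.12. Without single arrays Csf1r ran from 0.05 to 0.22 and Adgre1 from -0.34 to 0.05. With the mean level of the 14 markers as a covariate, a fit chosen after seeing the data, the Axl difference was 1.97 (adjusted p = 0.00823, limma). The Mrc1 difference was 2.11 (adjusted p = 0.152, limma). C1qc is among the 14 markers. Their mean level was alike in both groups, so this fit could move the differences little. The part of macrophage number in them was not tested. Among the markers well above background on all arrays, the 3 with the largest differences were C1qc, the Fc receptor gene Fcgr1a at -0.78 (adjusted p = 0.516, limma) and Cd14, which binds bacterial lipopolysaccharide, at -0.77 (adjusted p = 0.556, limma). Without Dex 1 and Dex 2, where 17.4% of all probes passed, Fcgr1a was -1.45, which passed (adjusted p = 0.0161, limma), and Cd14 was -1.11. Without Dex 3 and Dex 4 they were -0.12 and -0.43.

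The other genes of the same processes gave no call. Of 31 genes of apoptotic cell engulfment on the array none passed, and 15 were higher and 16 lower with a median difference of -0.02. An unadjusted p under 0.05 was found in 5, against 10.6% of all probes. Elmo1, which links engulfment receptors to Rac activation, was on all Dex arrays above all Control arrays, with a difference of 1.10 (adjusted p = 0.104, limma) and of 0.46 on the shared slide. So was Lgals3, a lectin abundant in macrophages, at 0.88 (adjusted p = 0.2, limma) and 0.06 on the shared slide. Elmo1 is given here by the brightest of its 4 probes, and over all the alternatives its difference ran from 0.25 to 1.30. Without Dex 3 and Dex 4, where 18% of all probes passed, Elmo1 passed at 1.30 (adjusted p = 0.0216, limma) and Lgals3 at 0.99 (adjusted p = 0.0272, limma). Without Dex 1 and Dex 2, where 17.4% of all probes passed, neither did, at 0.89 and 0.77. In the list 4 of the 31 genes lay wholly above and 1 wholly below, against 4.6% and 4.51% of all probes. Of 15 genes listed with the scavenger receptors, their ligand Hp and the heme-degrading enzyme Hmox1 included, none passed and none had an unadjusted p under 0.05, with a median of 0.07. Among those well above background on all arrays, the largest differences were Clec10a, a lectin of macrophages and dendritic cells, at 1.73 with overlapping groups and -1.08 on the shared slide (adjusted p = 0.524, limma), Scarb2, a lysosomal membrane protein, at -0.45, and Hp, the haptoglobin gene, at 0.39, which was -0.15 on the shared slide. Clec10a was 0.92 without Dex 1 and Dex 2 and 2.55 without Dex 3 and Dex 4.

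Of 35 complement genes none passed, 18 were higher and 17 lower, and the median difference was 0.02. An unadjusted p under 0.05 was found in 3, against 10.6% of all probes. Cfd, which encodes factor D of the alternative pathway, had the largest difference of those well above background on all arrays, at 1.05 with overlapping groups and -0.17 on the shared slide (adjusted p = 0.243, limma), followed by C1qc and by Cd55, which limits complement activation on cell surfaces, at -0.73. Cfd passed without Dex 3 and Dex 4, where 18% of all probes passed, at 1.32 (adjusted p = 0.0453, limma). It did not pass without Dex 1 and Dex 2, at 0.78. Cd55 passed without Dex 1 and Dex 2, where 17.4% of all probes passed, at -1.44 (adjusted p = 0.0222, limma). Without Dex 3 and Dex 4 it was -0.03. On the array each of these lists shares 2 genes with the macrophage markers, engulfment and scavenger receptors share 2, Lrp1 and Stab2, and engulfment and complement share 1, Calr.

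Markers of the other cells that a thymus preparation can hold were also read. None of 5 dendritic cell, 9 neutrophil, 7 B cell, 10 stromal and epithelial and 5 erythroid markers passed. Of the stromal and epithelial markers 9 of 10 were higher in Dex, with a median difference of 0.48, but only 5 of the 10 were well above background on all arrays and 2 were on none. Of the erythroid markers, all well above background, 5 of 5 were higher, with a median of 0.45. In each the groups overlapped, and none had an unadjusted p under 0.05. On the shared slide Hbb, Alas2 and Klf1 were lower in Dex, at -1.58, -0.89 and -1.16. Slc4a1 and Ahsp were higher there, at 0.36 and 0.18. The medians of the dendritic cell, neutrophil and B cell markers were 0.06, 0.09 and 0.13. Axl and Cd36 are also expressed by cells of such types, and their part in these levels was not tested. Of 9 endothelial markers 1 passed, Pecam1, an adhesion molecule that leukocytes also carry, with a difference of 1.36 (adjusted p = 0.0208, limma), which did not pass with the replicate block (adjusted p = 0.108, limma). The 13 thymocyte markers were well above background on all 8 arrays, none passed, and their median difference was -0.25. Their mean level, over the 12 with a value on every array, ran from 12.5 to 12.6 in Control and from 12.1 to 12.4 in Dex, all Dex arrays below all Control arrays. The part of that shift in the levels of Axl and Mrc1 was not tested. Of 8 glucocorticoid targets 6 passed as higher in Dex, 5 of them with the replicate block. Besides Tsc22d3 and Fkbp5 these were Klf9 at 1.98, Dusp1 at 3.05, Ddit4 at 3.73 and Nfkbia at 1.41.

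**Figure D4:**
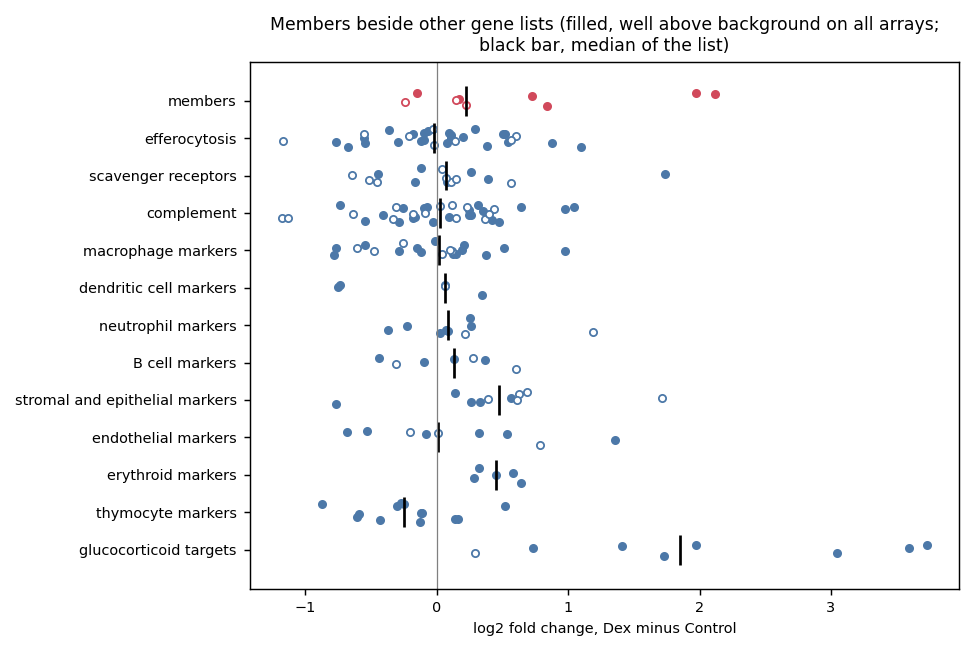
Log2 fold change, Dex minus Control (x axis), of the 9 genes (red) and of the other gene lists (blue, 1 point per gene), filled where the brightest probe is well above background on all 8 arrays, with a black bar at the median of each list. Axl and Mrc1, at 1.97 and 2.12, lie to the right of all points of the macrophage, complement and engulfment lists, whose medians are near 0. Mrc1 did not pass.

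The proximal promoters were searched for the palindromic glucocorticoid response element, since glucocorticoids act through a receptor that binds such sites. RefSeq promoters of build GRCr8, from 250 bases before to 50 after each gene's start, were found for the 9 genes on the array. On both strands the full response element was found in none of them and in 0.0149% of 33469 promoters. The shorter core ACANNNTGT, which lies within the full element, occurred in 1 of the 9, C1qb, and in 6.86% of all promoters. The box GAGGAAGT, bound by the myeloid factor PU.1, and the AP-1 site TGACTCA were in none of the 9 and in 2.42% and 4.63% of all promoters. These are counts of letters in a short window and do not describe binding. The 250 bases before the start of Axl, at chr1:90424010-90424259 on the minus strand, are shown because it is the gene that passed, and those of C1qb, at chr5:154407828-154408077 on the minus strand, because they hold the core, which is in capitals.
Axl: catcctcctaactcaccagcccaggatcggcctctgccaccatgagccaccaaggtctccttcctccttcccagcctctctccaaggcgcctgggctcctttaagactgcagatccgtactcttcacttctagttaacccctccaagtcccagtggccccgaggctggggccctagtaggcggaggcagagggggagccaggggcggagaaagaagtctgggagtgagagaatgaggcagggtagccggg
C1qb: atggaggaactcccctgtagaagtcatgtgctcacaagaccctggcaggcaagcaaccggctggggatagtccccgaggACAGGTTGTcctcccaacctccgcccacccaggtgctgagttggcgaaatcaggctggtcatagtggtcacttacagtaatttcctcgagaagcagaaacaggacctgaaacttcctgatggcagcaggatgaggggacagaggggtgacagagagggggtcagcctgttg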

How the data were processed

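Total RNA was labeled and hybridized by the authors to Agilent Whole Rat Genome arrays read in 1 color, and the deposited intensities are Feature Extraction (version 9.5.3.1) signals, background subtracted and detrended within the array but not scaled between arrays. The deposited log2 table holds the authors' quantile normalized, median polished values, and it was used as an alternative. Here the intensities were log2 transformed, quantile normalized and median polished per probe, without the spots flagged as outliers and the control spots (43379 non-control spots per array, 16 missing probe values among 41012 probes, 0 saturated spots). limma (version 3.58.1, R version 4.3.3) was fitted over all probes and all 8 arrays (lmFit, then eBayes) with no block and two-sided tests, and adjusted by Benjamini-Hochberg over all probes at 0.05. The methods use a signal to noise statistic with permutations of samples and probes. The alternative here keeps that statistic, its nominal p of 0.01 and its fold change of 1.2, but takes its null from the 70 assignments of the 8 arrays, pooled over probes, and so departs from the methods. The steps were tested on simulated data.

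The members and lists were chosen with earlier results of these data known. Named genes were all members, every list gene that passed, the 3 largest differences well above background on all arrays in the macrophage, complement, engulfment and scavenger receptor lists, Tsc22d3 and Fkbp5, and the 5 genes most like C1qa. Values are also given for Csf1r, Adgre1 and Cd68, as defining macrophage markers, and for the erythroid markers on the shared slide. Control and Dex cultures share replicate numbers. Deviations from the group means correlated between arrays of the same number at 0.40, 0.13, 0.55 and 0.18. All were above 0.1, and the numbers were taken as pairs. This does not show that arrays of the same number share a preparation, which the labels do not say. Unlike numbers could correlate as highly, with 0.40 for Control 1 and Dex 2, 0.19 for Control 2 and Dex 1 and 0.39 for Control 3 and Dex 4. Alternatives were scaling to the 75th percentile, normexp (offset 50), the deposited log2 table, no dim probes, the replicate block, slide as a fixed or random block, the shared slide alone, array weights, the mean over a gene's probes, and leaving out each array. The paper describes 3 biological replicates per group, and the labels number 4 without saying whether any share a preparation, so p-values measure the spread between these samples. The number of arrays limits the precision, and probes near background have less certain differences.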

Additional observations from a re-analysis of the deposited data

Results flagged for a closer look

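In 2 of 100 groups of 4 arrays checked over the named genes and probes, 1 array lay far from the other 3, where chance gives about 1 in 20. Cd36 read 6.21 on Dex 4, against 8.46 to 8.79 on the other Dex arrays, and Control 4 was the lowest Control array. Elmo1 read 5.20 on Control 3, against 5.75 to 5.79 on the other Control arrays. Both probes were well above background on all 8 arrays.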

How the results depend on the processing

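The count of members called was 1, and it was 0 with slide as a fixed block, 2 with slide as a random block, 2 by the signal to noise statistic, and 2 each without Dex 1 and Dex 2 and without Dex 3 and Dex 4. It remained 1 without any single array. The median difference over the members, 0.23, was 0.71 without Dex 1 and Dex 2, 0.41 without Dex 3 and Dex 4, 0.11 with normexp, 0.14 with scaling to the 75th percentile, 0.47 without dim probes, 0.46 with slide as a fixed block and within the shared slide, 0.39 with array weights, and 0.16 to 0.49 without single arrays. Over every probe the count of 319 was 166 with scaling to the 75th percentile, 915 with normexp, 562 without dim probes, 81 with the replicate block, 1 and 1838 with slide as a fixed and a random block, 2784 by the signal to noise statistic, 199 with the macrophage marker level as a covariate, 7143 without Dex 1 and Dex 2, 7388 without Dex 3 and Dex 4, and 96 (without Control 4) to 249 (without Dex 3) without single arrays. Of these, 231 of 319 were higher in Dex, against 497 of 915 with normexp, 133 of 166 with scaling, 388 of 562 without dim probes, 75 of 81 with the block, 1116 of 1838 with slide as a random block, 1471 of 2784 by the signal to noise statistic, 3226 of 7143 without Dex 1 and Dex 2 and 4072 of 7388 without Dex 3 and Dex 4. In the lists the 7 calls became 3 with scaling, 0 and 14 with slide as a fixed and a random block, 21 by the signal to noise statistic, 28 each without Dex 1 and Dex 2 and without Dex 3 and Dex 4, and 6 to 7 without single arrays. The 2 fits without pairs of arrays and the covariate fit were chosen after seeing the data. The replicate block changed the calls of the dimmer Axl probe, Pecam1 and Nfkbia and no other call of a member or listed gene. Pecam1 also lost its call in 6 of the 8 fits without 1 array. The causes were not tested. Signal over background limits Mertk, Cd163 and Tyro3, whose brightest probes were not well above it on every array, and the dimmer Mrc1 probe.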
